A study of Mus musculus with 18 samples.

Results

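Kidneys of mice that lack adenine phosphoribosyltransferase (Aprt), the enzyme that salvages adenine to AMP, were compared at 1 month and at 7 days of age. The comparison rests on 9 of the 18 arrays of the series: 6 Aprt KO mice at 7 days, 3 of each sex, and 3 Aprt KO mice at 1 month, of which replicate 1 is the only female and replicates 2 and 3 are males. The other 9 arrays are control kidneys, 6 at 7 days and 3 at 1 month, and each KO mouse has a control littermate of its own sex. All mice are labelled strain C57, tissue kidney, and each array holds total RNA of 1 mouse, labelled with biotin. The series text writes the genotypes as Aprt-/- and Aprt+/+ and names kidney stones in its title. The allele was not used here, so whether every cell type lacks the enzyme cannot be read from the labels. No litter is shared between the ages. Age is therefore compared between unrelated mice, and anything else that differed between the 7-day and the 1-month arrays cannot be told apart from age.

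Without Aprt, adenine is oxidised to 2,8-dihydroxyadenine, which is poorly soluble and crystallises in the renal tubules. The mouse kidney is unfinished at birth: nephrons still form during the first postnatal days, after which the tubules lengthen, acquire their transporters and oxidative enzymes, and begin to concentrate urine. The stroma and the dividing progenitors of the newborn kidney give way over the same weeks to differentiated epithelium. A bulk kidney array reads the sum of these, so for every fall given here fewer cells of a type and less RNA per cell cannot be told apart.

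Signals are the deposited linear array intensities, and every signal quoted is in those units. Changes are log2 fold changes of 1 month against 7 days on the log2(signal + 29) scale, given with their standard error from limma, and a gene was called at a Benjamini-Hochberg adjusted p under 0.05 over all 10833 probe sets with 1 gene symbol. Each of 8251 genes is represented by its brightest probe set, and other probe sets of a gene can differ. In the KO, the second one changed by -0.01 for Dnase1, -0.22 for Egf, -0.19 for Lcn2 and -0.00 for Igf2. Those of Igfbp1 (0.04), Cat (-0.01), Hk2 (0.12), Nes (-0.16), Krt18 (0.26), Mep1b (-0.38) and Cry1 (0.05 and -0.06) also moved little or the other way. The same holds for Ldhb (0.02), Hsd11b2 (0.05), Aqp1 (0.18), Fdx1 (0.07), C8g (-0.04) and Igfals (-0.08). It holds as well for Lama4 (-0.09), Mycn (-0.15), Cyp1b1 (-0.02) and Epb42 (-0.01), while Ncam1 gave -0.18 and -0.58. These are examples and not every gene whose probe sets differ. By contrast, those of Clu (-1.50), Krt19 (-1.93), Ces1d (4.65) and Klk1b5 (2.30) moved with the brightest. On the Aprt probe set the 7-day KO arrays gave signals of 41.9 to 135 (median 56) and the 1-month KO arrays 86.5, 57.8 and 52.2, against 51.3 to 148 (median 139.6) and 109.5, 108 and 104 in the controls. By that signal, 4 arrays went against their label: 7-day KO replicate 4, 1-month KO replicate 1 and 7-day control replicates 1 and 2. They are written here as the arrays so labelled. For 1-month KO replicate 1 the flag is weak, since its 86.5 lay below every control of its age. The probe set is dim, with a mean signal of 89.55, below the level of 118.557 used to choose named genes. It is 1 of 3 for Aprt, and the signals of the others are not given here. No array is shown to be mislabelled by this signal. One 7-day litter, KO replicate 4 and its control, had compressed bright signals, with highest signals of 10167 and 10767 against 25718 to 51453 on the other arrays. Tissue identity was as labelled: the 1-month KO arrays gave signals of 14637, 12509 and 13508 for Slc34a1, the phosphate transporter of the proximal tubule, and 7656, 5943 and 9912 for Umod, the uromodulin of the thick ascending limb. Xist and Eif2s3y matched the recorded sex on all 18 arrays.

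In the KO kidney, 844 genes rose and 1545 fell between 7 days and 1 month. These are 10.2% and 18.7% of the genes tested, the background for every list below. Among them, 285 genes rose and 550 fell by more than 2-fold. The ages did not overlap, in the sense that all 3 1-month arrays lay outside the range of the 6 7-day arrays, for 10% of genes on the higher side and 18% on the lower side. The median log2 fold change over all genes was -0.11, and list medians are best read against it. Equalising the distributions of the arrays (quantile normalization) moved that median to 0.01 and the split to 982 genes that rose and 1173 that fell, of which 775 and 1114 were among the calls above. Without 1-month KO replicate 1, the only KO female of its age and 1 of the 4 arrays above, 474 genes rose and 814 fell. That fit still averages over the sexes, with the 1-month sex difference taken from the single control female. Its counts therefore reflect the design as well as the array. Without all 4 arrays, where the same holds, the counts were 420 and 696. Among males only, 546 genes rose and 888 fell. Along the first principal component of the 9 KO arrays, which held 54.8% of the variance, the 7-day arrays lay between -24.5 and -16.5 and the 1-month arrays between 39.0 and 41.4. The second, with 11.1%, set 7-day KO replicate 4 at 29.1 apart from the other 7-day arrays at -10.5 to 4.1.

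The largest rises belonged to enzymes of the tubule and to 2 secreted products of the distal nephron. Dnase1, the secreted endonuclease that the kidney releases into urine, gave signals of 19.1 to 115 (median 68.8) at 7 days and 9279.6, 10229.7 and 9703 at 1 month. Its log2 fold change was 6.81 ± 0.30 with an adjusted p = 4.07e-11, a 112-fold rise, and every 1-month array lay above the 7-day range. The other Dnase1 probe set did not show this rise (-0.01). Egf, the epidermal growth factor precursor made in the thick limb and distal convoluted tubule, rose from a range of 236 to 657 (median 377) at 7 days to 11772, 8076 and 11736 at 1 month (4.72 ± 0.26). Klk1, the kallikrein of the connecting tubule, rose from a range of 244 to 962 (median 565) at 7 days to 10673, 8144 and 10555 at 1 month (4.11 ± 0.28), and Klk1b1 of the same gene cluster by 3.91 ± 0.30. The kallikrein, Ces1d, Cyp4b1 and Penk probe sets are of a kind that can detect several members of a gene family, so the member measured is uncertain. The same holds, among others, for the probe sets of Cry1, Igfbp1 and Cryab.

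The other large rises were enzymes of small-molecule metabolism. Inmt, which methylates indole amines, rose by 5.0 ± 0.28, Akr1c21, a hydroxysteroid dehydrogenase, by 4.44 ± 0.30, Ces1d, a carboxylesterase, by 4.38 ± 0.50, and Aass, the first enzyme of lysine breakdown, by 4.15 ± 0.38. Within the 1-month group these genes were not alike. Inmt gave 1229.6, 9807 and 4529.6 in the female and the 2 males, Akr1c21 870.0, 4308 and 2746, Cyp2e1 3693, 15758 and 16566 and Cyp4b1 4041, 14897 and 15337, so that the female array was the lowest for these 4 genes. The 1-month control female was also the lowest for them, beside the 2 control males. It gave 1283 against 11291 and 8517 for Inmt, and 401 against 4338 and 5237 for Akr1c21. For Cyp2e1 it gave 6004 against 15757 and 18242, and for Cyp4b1 5144 against 16694 and 17379. The sex difference was not tested here, and the fit gives the change averaged over the sexes. Aass and Ces1d gave 5947, 7053 and 7716 and 2679.8, 2462 and 3291.

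The largest falls were of a different kind. Sprr2f, a small proline-rich protein of stressed epithelium, gave 2796 to 4610.4 (median 3045) at 7 days and 10.5, 94.1 and 50.4 at 1 month, a log2 fold change of -5.61 ± 0.33 with an adjusted p = 1.15e-09. Hdc, histidine decarboxylase, which makes histamine, fell from a range of 474 to 1862 (median 976) at 7 days to 17.7, 13.7 and 11.1 at 1 month (-4.61 ± 0.45). Penk, the enkephalin precursor, changed by -4.0 ± 0.17, Cldn6, a claudin of embryonic epithelia, by -4.0 ± 0.19 and Thy1, a surface glycoprotein of T cells and fibroblasts, by -3.78 ± 0.26. Lcn2, the injury marker lipocalin 2, fell from a range of 2657 to 3864 (median 3249) at 7 days to 129.5, 288 and 371 at 1 month (-3.73 ± 0.21). Nrep (-3.63 ± 0.18), Postn, periostin, a matrix protein of growing connective tissue (-3.36 ± 0.16), Cfi, complement factor I (-3.37 ± 0.18), and Glipr2 (-3.33 ± 0.17) complete the 10.

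**Figure D1:**
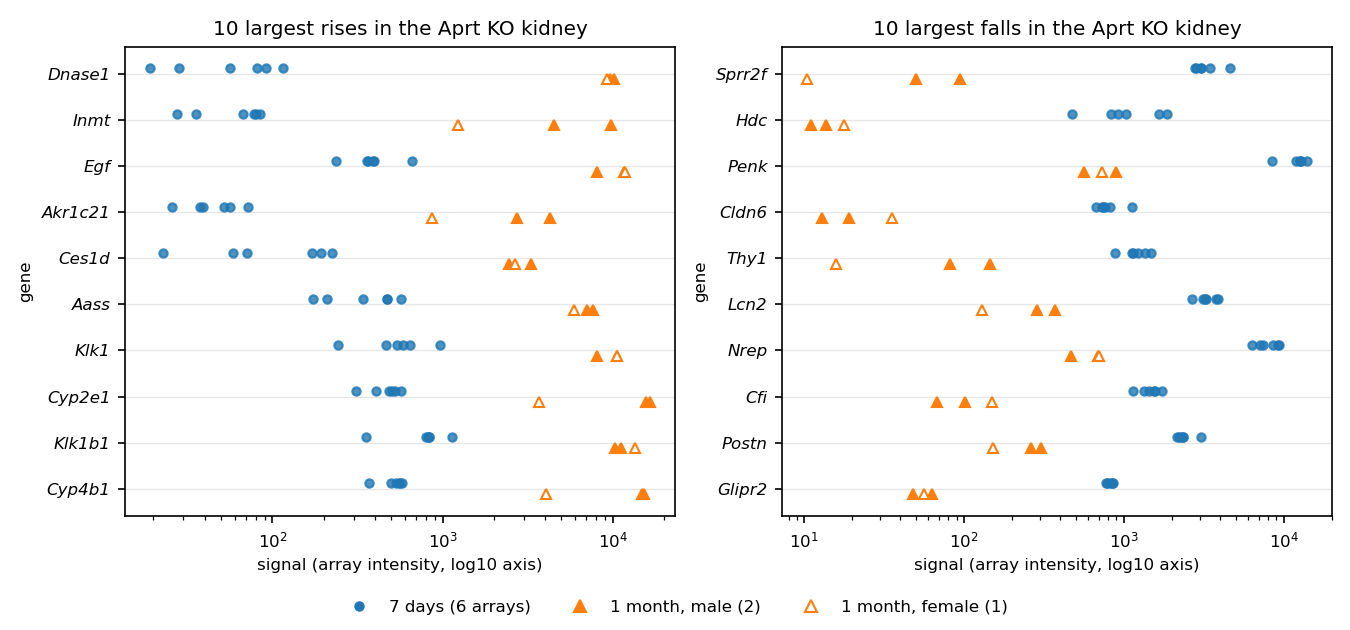
Signal on each Aprt KO array, on a log10 axis, of the 10 genes with the largest called rises (left) and the 10 with the largest called falls (right). Circles are the 6 arrays at 7 days, triangles the 3 at 1 month with the female array open. The genes were chosen among those whose ages do not overlap, and the open triangle is the lowest 1-month value for Dnase1, Inmt, Akr1c21, Aass, Cyp2e1 and Cyp4b1 among the rises.

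Of 30 measured transporters of the proximal tubule, 29 rose and none fell, with a median log2 fold change of 1.17. Slc22a12, the urate exchanger, gave 1437 to 2219.8 (median 1917) at 7 days and 8509, 9545 and 7037 at 1 month (2.10 ± 0.17). Slc22a2, the organic cation transporter, rose from a range of 590.5 to 934 (median 826) at 7 days to 2856, 4671 and 4579 at 1 month (2.14 ± 0.19), the fatty acid transporter and acyl-CoA synthetase Slc27a2 by 2.01 ± 0.13, and the glutamate transporter Slc1a1 by 1.92 ± 0.18. Among 31 measured genes of proximal amino acid and sugar metabolism 19 rose, none fell and 12 did not pass the test, with a median of 1.06. Dmgdh, a mitochondrial enzyme of choline breakdown, rose by 3.31 ± 0.20, Hao2, a peroxisomal hydroxyacid oxidase, by 2.61 ± 0.23, Hgd, which opens homogentisate in tyrosine breakdown, by 2.16 ± 0.15, and Bhmt2 by 2.15 ± 0.13.

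Of 14 measured brush border peptidases and hydrolases 7 rose and 2 fell (median 0.48), the falls a share of 14.3% that does not exceed the background, while 5 rose and neither fall passed without 1-month KO replicate 1. Acy3, an aminoacylase, rose from a range of 804 to 1363 (median 965) at 7 days to 7761, 14778 and 11242 at 1 month (3.29 ± 0.14), and Alpl, alkaline phosphatase, rose by 1.95 ± 0.20, Mep1b by 1.21 ± 0.13 and Dpep1 by 1.04 ± 0.16. Mme, neprilysin, fell from a range of 547 to 822 (median 654) at 7 days to 243, 302 and 794 at 1 month (-0.84 ± 0.24), with overlapping arrays, and Dpp4 fell (-0.70 ± 0.22).

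Of 30 measured cytochrome P450 and conjugation enzymes 16 rose and 1 fell, with a median of 0.82. Cyp2e1 (4.04 ± 0.20) and Cyp4b1 (3.88 ± 0.13) led, followed by Ephx2, the soluble epoxide hydrolase (2.47 ± 0.20), and the sulfotransferase Sult1d1 (2.0 ± 0.16). The member that fell was Cyp1b1 (-0.59 ± 0.17), from a range of 450.1 to 656 (median 574) at 7 days to 362, 471 and 319 at 1 month. Among 40 glutathione and antioxidant genes 23 rose and 5 fell, and 17 and 3 without 1-month KO replicate 1. The 5 falls are a share of 12.5%, below the background of 18.7%. The transferases Gstk1 (2.05 ± 0.14), Gstt1 (1.85 ± 0.13), Gstt2 (1.38 ± 0.13) and Gstp1 (1.03 ± 0.10) rose, while the metallothioneins Mt1 (-1.55 ± 0.23) and Mt2 (-1.89 ± 0.22), which bind zinc and copper, fell together with Akr1b8 (-1.53 ± 0.16) and the haem-degrading Hmox1 (-0.77 ± 0.19). Mt1 gave 6946 to 10571 (median 9385) at 7 days and 3311, 1909 and 4432 at 1 month.

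Of 16 measured genes that respond to androgen or differ between the sexes in kidney, 9 rose and 1 fell (median 1.07). Cyp2j5 rose by 1.89 ± 0.19 and Hsd17b11, a hydroxysteroid dehydrogenase, by 1.21 ± 0.12. Gusb, beta-glucuronidase, fell (-0.81 ± 0.12). Kap, the androgen-regulated protein of the mouse proximal tubule, gave 5675 to 17016 (median 14007) at 7 days and 25775, 19699 and 23370.3 at 1 month and did not pass the test (0.93 ± 0.34 with an adjusted p = 0.0541). Kap was called in 8 of 21 alternatives, among them the litter as a random replicate block, and its ages did not overlap. Its lowest 7-day value was that of replicate 4, the array with compressed bright signals.

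Of 68 measured genes of oxidative phosphorylation 35 rose and none fell, with a median of 0.49. Cycs, cytochrome c, rose by 1.42 ± 0.23, Sdha of complex II by 1.14 ± 0.14, Ndufb9 of complex I by 0.87 ± 0.13 and the assembly factor Surf1 by 0.56 ± 0.09. The count was 15 without 1-month KO replicate 1 and 10 without the 4 arrays whose Aprt signal went against their label. In the tricarboxylic acid cycle and ketone list 14 of 23 rose and 1 fell, the last being Pdk1, a brake on pyruvate entry (-0.47 ± 0.15). Me1, malic enzyme (1.93 ± 0.22), and Oxct1, which uses ketone bodies (1.59 ± 0.16), rose most, and Suclg1 and Sucla2 rose by 0.96 ± 0.15 and 0.82 ± 0.12. The counts fell to 7 and 0 without 1-month KO replicate 1.

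Of 49 measured genes of fatty acid oxidation and the peroxisome, 28 rose and none fell, with a median of 0.70. Phyh, which starts the breakdown of branched fatty acids, rose from a range of 1534 to 2184 (median 1874) at 7 days to 5876, 8244 and 7265 at 1 month (1.82 ± 0.13). The peroxisomal thiolase Acaa1b rose by 1.59 ± 0.15 and catalase, Cat, by 1.46 ± 0.15. Without 1-month KO replicate 1 the count was 18. Of 22 glycolytic genes 8 rose and 1 fell, and 3 rose without that array. Ldhb (0.81 ± 0.12), the lactate dehydrogenase subunit of oxidative tissues, Pgam2 (1.28 ± 0.20), Aldoc (0.95 ± 0.21) and the glucose transporter Slc2a1 (0.85 ± 0.22) rose. Hk2, the inducible hexokinase, fell from a range of 159 to 258 (median 234) at 7 days to 69.4, 97.4 and 50.5 at 1 month (-1.29 ± 0.25).

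In the distal nephron, 15 of 18 measured genes of the thick limb and distal convoluted tubule rose and none fell, with a median of 1.29. Kcnj1, the potassium channel of the thick limb, rose from a range of 861 to 1055 (median 942) at 7 days to 2746, 1768 and 2536 at 1 month (1.32 ± 0.13), the phosphatase inhibitor Ppp1r1a by 1.92 ± 0.16, and Umod from a range of 2368 to 3916 (median 2999) at 7 days to 7656, 5943 and 9912 at 1 month (1.33 ± 0.17). The collecting duct list was split, with 5 of 18 genes higher, Avpr2 and Car2 (0.77 ± 0.19 and 0.45 ± 0.12) among them, 6 lower and 7 that did not pass. The other rises were Aqp2, the vasopressin-regulated water channel, by 1.06 ± 0.21, Hsd11b2, which shields the aldosterone receptor from glucocorticoid, by 0.96 ± 0.21, and Slc4a1, the anion exchanger of acid-secreting cells, by 0.82 ± 0.14. Aqp2 gave 1747 to 4592 (median 2703) at 7 days and 7730.3, 3964 and 5028 at 1 month, and the ages overlapped. The keratins of the list fell: Krt19 from a range of 1715 to 2252 (median 1993) at 7 days to 278, 285 and 451 at 1 month (-2.48 ± 0.18), Krt18 (-1.87 ± 0.27), Krt8 (-1.06 ± 0.18) and Krt7 (-0.92 ± 0.16). In the control they changed by -1.68, -1.67, -0.56 and -0.55. Their 7-day medians were 461, 1001, 2344 and 1555 in the control and 1993, 2148, 3801 and 2341 in the KO. Without 1-month KO replicate 1, 4 members of the list rose and 4 fell. Of the 8 measured genes of medullary osmolytes and urea, Aqp1 (1.29 ± 0.19), Aqp2 and the taurine transporter Slc6a6 (0.64 ± 0.18) rose and the amino acid transporter Slc38a2 fell (-1.27 ± 0.22).

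Of 96 measured genes of the cell cycle and DNA replication 73 fell and none rose, with a median of -1.03, and 95 of the 96 had a fold change below 0. Cks1b, a small subunit of the cyclin-dependent kinases, gave 1105 to 1462 (median 1294) at 7 days and 127, 157 and 191 at 1 month, a log2 fold change of -2.88 ± 0.12 with an adjusted p = 1.75e-11. Cdk1, the mitotic kinase, fell from a range of 830.0 to 971 (median 880.2) at 7 days to 179.5, 214 and 229.9 at 1 month (-2.01 ± 0.11), as did Prc1, which bundles the midzone microtubules (-1.99 ± 0.16), and the histone H2ax (-1.35 ± 0.11). No 1-month array reached the 7-day range for any of these 4 genes.

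The promoters of Cks1b, Cdk1 and Prc1 are shown because members of this list that fell held one short motif more often than genes in general. In RefSeq windows of GRCm38.p6, from 250 bases before to 50 after the start, the hexamer TTTGAA on either strand (the core of the cell cycle homology region, through which repressor complexes silence late cell cycle genes in resting cells) was present in 29 of 61 windows of genes that fell, 47.5%. It was present in 2 of 18 windows of the other measured members, 13.0% of the windows of all genes tested and 18.1% of all 27025 windows. CCAAT, the box bound by nuclear factor Y, was present in 65.6% of windows of members that fell and 61.1% of the other members, against 38.3% of all genes tested. The E2F forms TTTGGCGC and TTTCCCGC were present in 8.2% and 9.84% of windows of members that fell and in 1.05% and 1.93% of those of all genes tested. In the other members they were present in 11.1% and 5.56%, or 2 and 1 of 18 windows. These shares describe letters in a window and carry no test. In the sequences, written 5′ to 3′ on the strand of the gene, capitals mark TTTGAA and CCAAT on either strand, and neither E2F form was found. The windows are Cks1b at chr3:89418242-89418541 (- strand), Cdk1 at chr10:69352863-69353162 (- strand) and Prc1 at chr7:80294201-80294500 (+ strand).
Cks1b: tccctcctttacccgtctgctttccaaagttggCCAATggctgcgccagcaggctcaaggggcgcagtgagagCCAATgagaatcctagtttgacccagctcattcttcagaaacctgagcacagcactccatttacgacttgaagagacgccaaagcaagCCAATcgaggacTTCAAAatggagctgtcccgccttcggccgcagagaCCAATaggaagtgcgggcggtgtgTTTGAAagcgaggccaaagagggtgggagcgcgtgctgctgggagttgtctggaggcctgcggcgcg
Cdk1: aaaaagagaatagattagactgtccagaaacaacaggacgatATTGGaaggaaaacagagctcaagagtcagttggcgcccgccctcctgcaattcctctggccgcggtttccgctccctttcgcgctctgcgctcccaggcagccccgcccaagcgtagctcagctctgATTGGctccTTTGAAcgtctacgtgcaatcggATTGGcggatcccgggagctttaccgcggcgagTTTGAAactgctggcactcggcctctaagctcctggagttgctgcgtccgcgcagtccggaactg
Prc1: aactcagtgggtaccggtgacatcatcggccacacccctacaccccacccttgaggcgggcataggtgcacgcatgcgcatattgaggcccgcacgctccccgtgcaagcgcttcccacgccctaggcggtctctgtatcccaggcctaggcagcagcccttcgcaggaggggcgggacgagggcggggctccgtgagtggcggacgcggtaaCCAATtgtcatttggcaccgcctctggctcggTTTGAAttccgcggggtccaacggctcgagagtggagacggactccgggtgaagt
In each of the 3 windows a TTTGAA lies just before the start, beginning 17 bases before it in Cks1b, 15 in Cdk1 and 5 in Prc1, with a CCAAT box 41, 48 and 37 bases before the start.

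Of 56 measured genes of nephron progenitors and renal development 22 fell and 2 rose (median -0.49). Gpc3, a growth-restraining proteoglycan, fell from a range of 3556 to 4141 (median 3843) at 7 days to 927, 664 and 563 at 1 month (-2.30 ± 0.10). Ncam1, the adhesion molecule of condensed mesenchyme (-2.41 ± 0.14), Sfrp2, a secreted Wnt antagonist (-1.47 ± 0.11), and Tcf21, a transcription factor of stroma and podocytes (-1.95 ± 0.15), also fell. Bmp4 rose by 0.44 ± 0.09, from a range of 635 to 834 (median 666) at 7 days to 925, 1090.2 and 940.5 at 1 month, and Crym, a dim gene, by 0.83 ± 0.25. Six2 and Cited1, which mark the nephron progenitors themselves and are named after their values were seen, gave 74.5 to 102 (median 87.9) and 229 to 307 (median 252) at 7 days and 112, 67.3 and 57.6 and 286, 45.1 and 253 at 1 month, and neither passed (adjusted p = 0.891 and 0.278). Without 1-month KO replicate 1, 16 members fell and none rose.

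Of 23 measured imprinted and fetal growth genes 12 fell and 4 rose. Mest gave 513 to 931 (median 718) at 7 days and 52.9, 79.7 and 66.9 at 1 month (-2.99 ± 0.26). Ndn (-1.81 ± 0.14), Sgce (-1.24 ± 0.10) and Cdkn1c, a cyclin-dependent kinase inhibitor that restrains growth (-1.88 ± 0.14), also fell. The 4 that rose were Ddc, which makes dopamine (2.94 ± 0.26), the transporter Slc22a18 (2.42 ± 0.19), Phlda2 (1.19 ± 0.14) and Gatm, which begins creatine synthesis (0.70 ± 0.15). In the insulin-like growth factor axis 3 of 18 rose and 4 fell, shares of 16.7% and 22.2% beside a background of 10.2% and 18.7%. Igf2 fell from a range of 2193 to 3277 (median 2512) at 7 days to 519, 478 and 514 at 1 month (-2.25 ± 0.21), as did Igfbp2 (-1.74 ± 0.18), Igfbp3 (-1.16 ± 0.21) and Socs2, a brake on growth hormone signalling (-1.87 ± 0.39). Ghr, the growth hormone receptor, rose from a range of 318 to 467 (median 404) at 7 days to 1141, 2795 and 2463 at 1 month (2.02 ± 0.15), Igfbp1 by 1.86 ± 0.31 and Igfals by 0.66 ± 0.21.

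The interstitial matrix had the list median furthest from 0 among the 43 lists. Of 54 measured fibrillar and interstitial matrix genes 44 fell and none rose, with a median of -1.49. Col5a2, a fibril-nucleating collagen, gave 1833 to 2618 (median 2172) at 7 days and 219.7, 178 and 179.5 at 1 month (-3.30 ± 0.16). Col1a1, the main chain of type I collagen, fell from a range of 6318 to 11049 (median 8598) at 7 days to 1809.6, 2252 and 2166 at 1 month (-2.10 ± 0.20), as did the microfibril gene Mfap2 (-2.93 ± 0.15). Dcn, decorin, stood apart with 3406 to 4763 (median 3760.1) at 7 days and 3004, 3608 and 3100.2 at 1 month, and its change did not pass the test (-0.28 ± 0.14 with an adjusted p = 0.163). Of 24 basement membrane genes 17 fell and none rose (median -0.94), including Col4a2 (-1.24 ± 0.14), Lama4 (-1.53 ± 0.13), Nid2 (-1.94 ± 0.23) and Agrn (-1.24 ± 0.14). The basement membrane count was 10 without 1-month KO replicate 1. Among 17 metalloproteinases and inhibitors 7 fell, 4 without that array, among them Mmp14 (-1.48 ± 0.12), Reck (-1.47 ± 0.16), Timp1 (-1.59 ± 0.26) and the urokinase receptor Plaur (-1.88 ± 0.32). Timp3, a matrix-bound inhibitor, rose from a range of 3088 to 5275 (median 3558) at 7 days to 6889, 6877 and 6866 at 1 month (0.82 ± 0.18).

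Of 27 measured smooth muscle and vasoactive genes 16 fell and 2 rose, the latter being the kallikreins Klk1 and Klk1b5 (3.62 ± 0.26). Acta2, smooth muscle actin, fell from a range of 3514 to 5628 (median 4495) at 7 days to 562, 556 and 515 at 1 month (-2.92 ± 0.14), as did Tagln (-2.26 ± 0.12), Tpm1 (-1.98 ± 0.11) and Cnn2 (-1.67 ± 0.14). The count was 10 without 1-month KO replicate 1. Of 26 endothelial genes 13 fell and none rose, led by the tight junction gene Cldn5 (-1.45 ± 0.13), Cdh5 (-0.99 ± 0.15), Sox18 (-0.77 ± 0.12) and Igfbp3 (-1.16 ± 0.21), and 7 fell without 1-month KO replicate 1. Of 22 podocyte genes 12 fell and none rose, with Nes, nestin (-1.24 ± 0.16), and Npnt, nephronectin (-1.35 ± 0.20), among them, and 7 fell without that array.

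**Figure D2:**
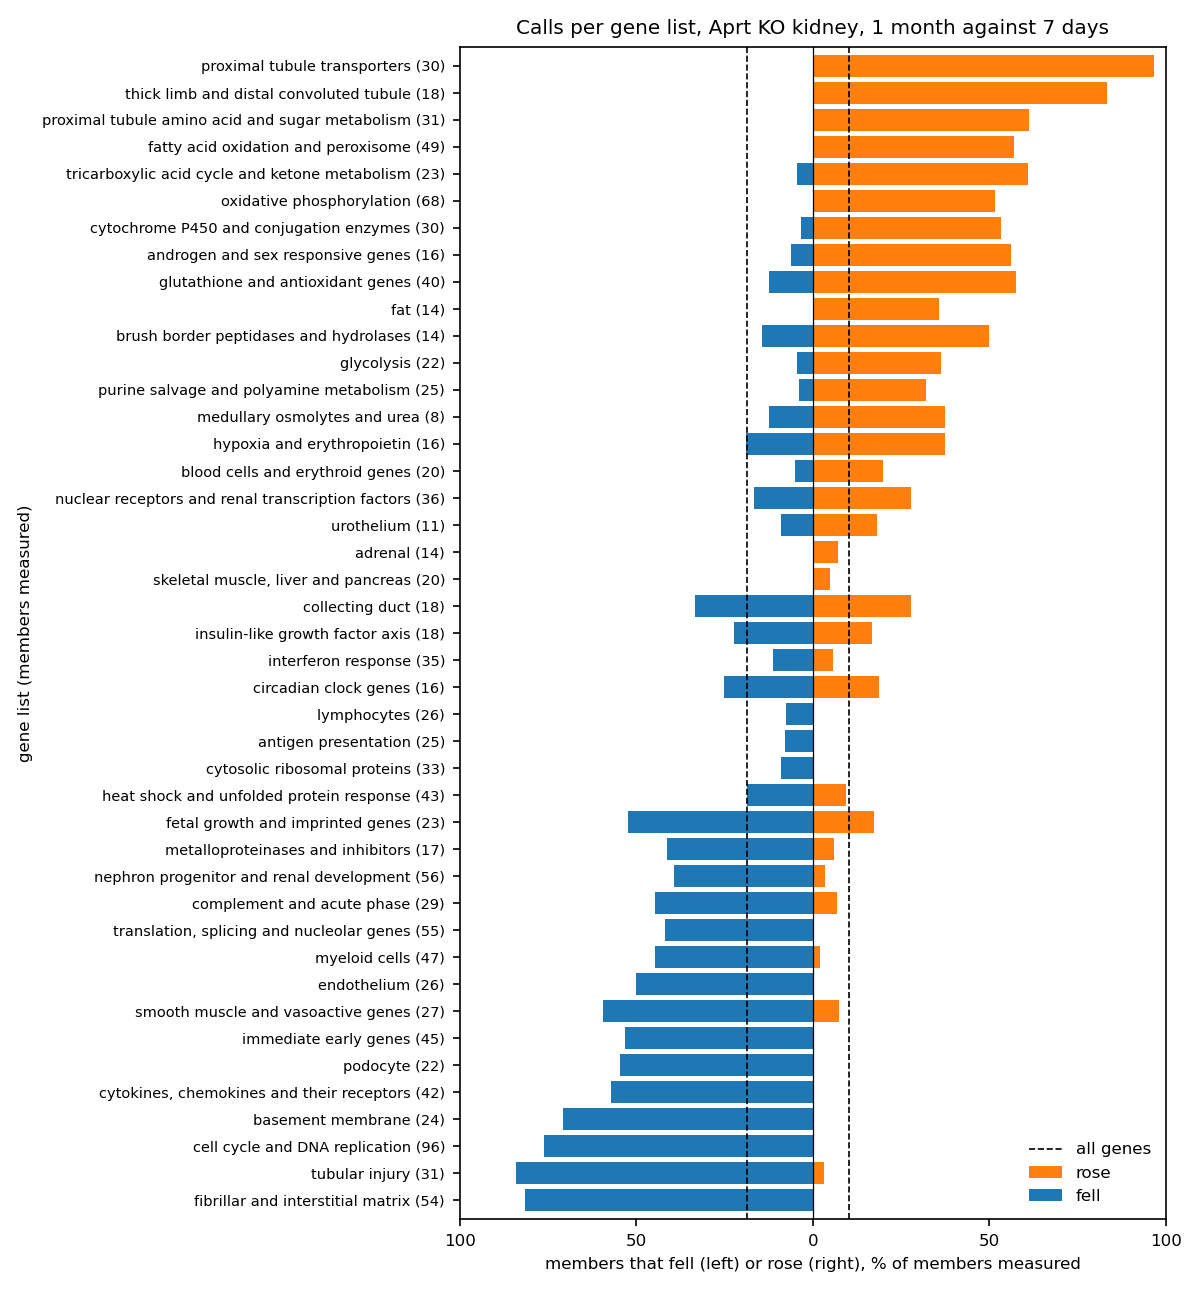
Share of the measured members of each gene list that rose (right, orange) or fell (left, blue) between 7 days and 1 month in the Aprt KO kidney, in percent of members measured, with the number measured after each name. The dashed lines mark the background of all 8251 genes, 10.2% that rose and 18.7% that fell, and proximal tubule transporters reach furthest to the right, tubular injury and interstitial matrix genes furthest to the left.

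Of 55 genes of translation, splicing and the nucleolus 23 fell and none rose (median -0.40), with 7 without 1-month KO replicate 1. Snrpg, a spliceosome protein (-1.24 ± 0.21), fibrillarin, Fbl (-0.69 ± 0.11), Mycn (-1.59 ± 0.24) and Myc (-1.46 ± 0.23) were among those that fell. Of 33 cytosolic ribosomal protein genes 3 fell, or 9.09%, below the background of 18.7%. They were Rpl10a (-0.74 ± 0.12), Rps19 (-0.97 ± 0.23) and the dim Rps15 probe set. Without the litter with compressed bright signals 12 fell, and with quantile normalization 10.

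Of 36 renal transcription factors and nuclear receptors 10 rose and 6 fell, the falls a share of 16.7% that does not exceed the background. Nr1h3, the oxysterol receptor, rose by 1.69 ± 0.20, Vdr, the vitamin D receptor, by 1.36 ± 0.21, Nr1h4, the bile acid receptor, by 1.20 ± 0.22 and Esrra, a regulator of mitochondrial genes, by 0.99 ± 0.15. Nr4a1, an immediate early receptor (-1.67 ± 0.35), Nr2f1 (-1.45 ± 0.24), Cebpd (-1.37 ± 0.23) and the cilia regulator Foxj1 (-1.18 ± 0.33) fell. Without 1-month KO replicate 1 the counts were 7 and 1. Of 16 clock genes 3 rose and 4 fell, shares of 18.8% and 25% beside a background of 10.2% and 18.7%. Dbp went from a range of 13.4 to 89.4 (median 64.5) at 7 days to 231, 868 and 503 at 1 month (2.42 ± 0.34), Nr1d1 rose by 1.84 ± 0.24 and Nr1d2 by 0.81 ± 0.15, while Cry1 (-1.81 ± 0.13), Bhlhe40 (-0.62 ± 0.20), Wee1 (-0.60 ± 0.15) and Arntl (-0.57 ± 0.18) fell. The hour of collection was not used here, and its part in these values was not tested.

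Of 25 measured genes of purine salvage and polyamine metabolism 8 rose and 1 fell, shares of 32% and 4%. Ak4, a mitochondrial adenylate kinase, rose from a range of 379.5 to 651 (median 517) at 7 days to 2598, 2992 and 3259 at 1 month (2.42 ± 0.13), Ak3 by 1.10 ± 0.18 and ornithine decarboxylase, Odc1, by 1.27 ± 0.20. Srm, spermidine synthase, fell (-0.64 ± 0.16). The purine list had 5 rises without 1-month KO replicate 1. In the hypoxia and erythropoietin list 6 of 16 rose and 3 fell, the falls a share of 18.8% that lies at the background. Ndrg1 rose by 0.90 ± 0.16 and Bnip3 by 0.70 ± 0.13, while Ddit4 changed by -0.93 ± 0.24. Epo, erythropoietin, changed by -0.73 ± 0.26 at dim signals of 39.1 to 112 (median 71.1) and 17.6, 23.9 and 64.7. Of 43 heat shock and unfolded protein genes 4 rose and 8 fell, shares of 9.3% and 18.6% that lie at the background. These counts were 1 and 2 without 1-month KO replicate 1, and in the hypoxia list 3 rose and none of the 3 falls passed. Herpud1 (1.16 ± 0.14) had the largest rise among the members named by the rule and Pdia6 (-0.84 ± 0.18) the largest fall.

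Genes of tubular injury mostly fell. Of 31 measured members 26 fell and 1 rose, with a median of -1.36 in the KO and -0.64 in the control. This list was chosen with the KO and control values of these arrays known, so its direction is not independent evidence. Lgals1, galectin 1, fell from a range of 6198 to 10312 (median 8184) at 7 days to 1754, 1778 and 2029 at 1 month (-2.14 ± 0.15), as did Tgfbi, a matrix protein induced by TGF-beta (-2.82 ± 0.18). Cryab, a small heat shock protein, was the one that rose (1.00 ± 0.21). Of 29 complement and acute phase genes 13 fell and 2 rose, and Serpina3n, an acute phase protease inhibitor, went from a range of 1297 to 2443 (median 1860.5) at 7 days to 436, 515 and 351 at 1 month (-1.98 ± 0.22). C8g (1.51 ± 0.24) and the dim Orm1 (0.86 ± 0.21) rose.

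Of 42 measured cytokines, chemokines and receptors 24 fell and none rose, with a median of -0.64 beside -0.14 in the control. Cxcl5, a neutrophil chemokine, gave 209 to 333 (median 284) at 7 days and 37.1, 50.6 and 30.9 at 1 month (-2.17 ± 0.22). Il1b, interleukin 1 beta, gave 131 to 246 (median 167) and 25.4, 11.7 and 10.8 (-2.16 ± 0.19), and its antagonist Il1rn 278 to 432 (median 371) and 16.9, 80.1 and 16.4 (-2.79 ± 0.32). All 3 Il1b signals at 1 month, and Il1rn on replicates 1 and 3, lay below the 29 added before the log2, which limits their fold changes. The cytokine count was 16 without 1-month KO replicate 1 and 15 among genes at or above the 40th percentile of signal. Of 47 myeloid genes 21 fell and Ctsz rose (0.58 ± 0.17), with Lsp1, a leukocyte cytoskeletal protein (-2.98 ± 0.11), the endotoxin receptor Cd14 (-1.48 ± 0.14) and the complement gene C1qa (-1.42 ± 0.21) among the falls. That count was 7 without 1-month KO replicate 1. In the control, Lsp1 changed by -3.17, C1qa by -0.47 and Cd14 by -0.15, so Lsp1 fell in both genotypes. Of 45 immediate early genes 24 fell and none rose. Fos went from a range of 350.0 to 690.5 (median 368) at 7 days to 40.3, 55.8 and 26.1 at 1 month (-2.58 ± 0.27), and Egr2 (-2.11 ± 0.26), Socs3 (-2.23 ± 0.20), Ccn1 (-1.49 ± 0.17) and Btg2 (-0.97 ± 0.11) fell. The immediate early count was 14 without 1-month KO replicate 1.

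Other immune lists did not exceed the background. Of 26 lymphocyte genes 2 fell, Thy1 and Ltb (-1.21 ± 0.28), and of 25 antigen presentation genes 2 fell, Ctss (-1.22 ± 0.36) and Cd1d1 (-0.66 ± 0.23), neither of which passed with the litter as a random replicate block. Of 35 interferon response genes 4 fell, Irf1, Stat3, Ifitm3 and Eif2ak2, and 2 rose, Ifi27 and the dim Ifit1, with log2 fold changes from -0.85 (Irf1) to 0.95 (Ifit1). Their medians, -0.07, -0.02 and -0.13, lay close to that of all genes. When 1-month KO replicate 1 was left out, 1 lymphocyte gene and 2 interferon genes fell, 1 interferon gene rose and neither antigen presentation gene passed.

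The postnatal change in the KO kidney was next set beside that of the 9 control arrays, in which 814 genes rose and 1554 fell (9.87% and 18.8%). Of the genes that rose in the KO, 656 also rose in the control, 77.7% of the KO rises and 80.6% of the control rises. Of those that fell, 1203 fell in both, 77.9% and 77.4%. No gene rose in the KO and fell in the control, and 1 gene, Bcl3, fell in the KO and rose in the control. Across the 8251 genes the fold changes of KO and control had a Pearson r of 0.87, given as a description, since genes are not independent and littermates stand on both sides.

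**Figure D3:**
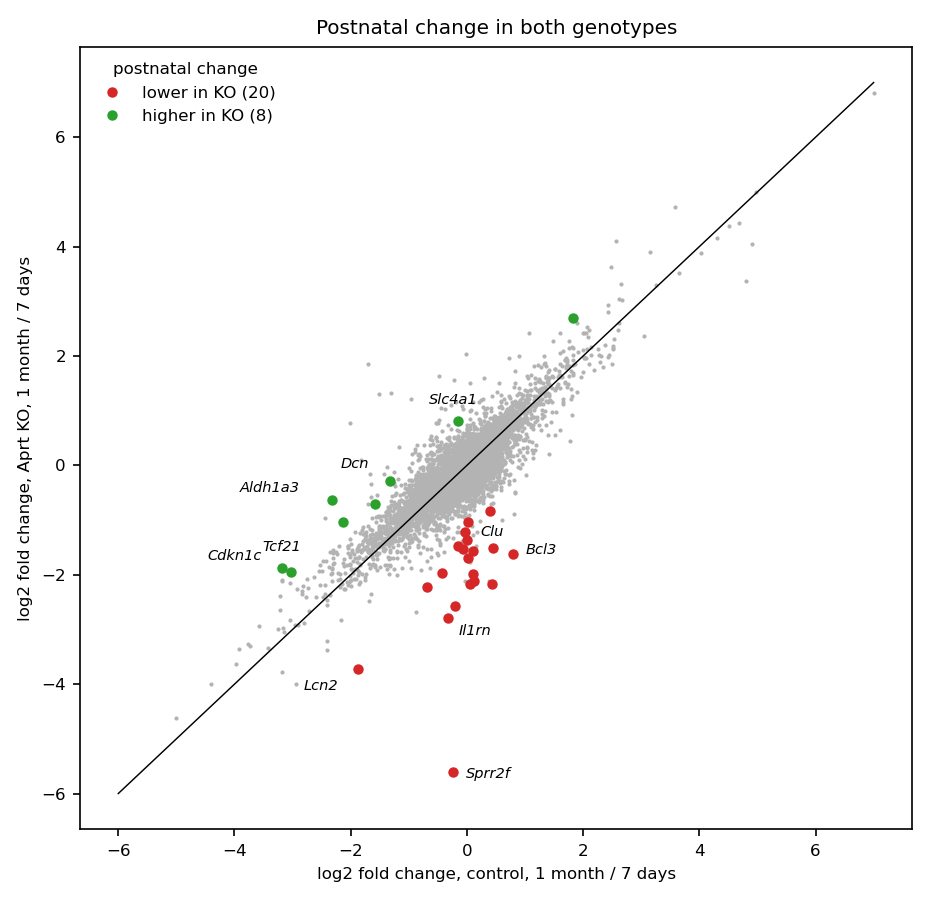
Log2 fold change of 1 month against 7 days for each of 8251 genes, in control kidneys (horizontal) and Aprt KO kidneys (vertical), with the line of equal change. Red and green points are the 20 and 8 genes whose change differed between the genotypes, lower and higher in the KO, and Sprr2f lies furthest from the line.

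The test of the difference itself, KO change minus control change, called 28 genes, 20 lower and 8 higher in the KO. These are 0.242% and 0.097% of the genes tested. An unadjusted p under 0.05 was found for 421 of 8251 genes in this fit, which leaves out the pairing of littermates. Littermates were correlated (consensus 0.445), so that number cannot be set against the one this cut-off gives when none differ. With the litter as a fixed replicate block 72 genes were called, 33 lower and 39 higher, and with the litter as a random replicate block 74, 41 lower and 33 higher. Both included all 28. Leaving out 1 array at a time left 11 to 23 lower and 1 to 8 higher, with the fewest lower without replicate 1 of either 1-month group or without 1-month KO replicate 3. Among the males alone 1 gene was called, and without 1-month KO replicate 1 there were 12, of which 9 were among the 28. Without the 4 arrays whose Aprt signal went against their label 7 were called, 6 of them among the 28. Sprr2f was the 1 gene of the 28 called under all 30 alternatives.

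The 20 genes that fell more in the KO included injury, acute phase and inflammatory genes and their early response regulators. Sprr2f differed by -5.37 ± 0.45 (adjusted p = 1.20e-05). Its 7-day signals were 2796 to 4610.4 (median 3045) in the KO and 19.6 to 134 (median 68.9) in the control, and at 1 month the controls gave 51.4, 100.3 and 28.8 against 10.5, 94.1 and 50.4 in the KO. The genotypes therefore differed at 7 days and met at 1 month. Sprr2i (-1.23 ± 0.23) and Sprr2g (-1.06 ± 0.22) are close relatives, and their probe sets may share sequence with Sprr2f.

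Lcn2 differed by -1.85 ± 0.29, with 7-day signals of 196 to 414 (median 268) in the control against 2657 to 3864 (median 3249) in the KO and 1-month signals of 51, 56.8 and 71.2 against 129.5, 288 and 371. Clu, clusterin, a secreted chaperone of injured tubules, fell in the KO from a range of 3183 to 6314 (median 5373) at 7 days to 2019.8, 1648 and 2049 at 1 month (-1.36 ± 0.18) and had a fold change of 0.01 in the control, a difference of -1.37 ± 0.25. In the control Clu gave 1336 to 1790.1 (median 1458) at 7 days and 1812, 1149.5 and 1509 at 1 month, values that overlap. For Serpina3n (-2.08 ± 0.30) the control gave 205 to 297 (median 274) and 336, 349 and 180.2. For Osmr, the oncostatin M receptor (-1.71 ± 0.35), and Cd14 (-1.33 ± 0.19) the control fold changes were 0.02 and -0.15.

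Among cytokines, Cxcl5 (-2.60 ± 0.31), Il1rn (-2.47 ± 0.45), Il1b (-2.22 ± 0.26) and Cxcl2 (-1.67 ± 0.27) differed, as did Bcl3, a nuclear regulator of NF-kappa-B (-2.41 ± 0.26). Bcl3 fell in the KO from a range of 319 to 588 (median 392) at 7 days to 54.5, 254 and 199.9 at 1 month, while the control went from a range of 49.3 to 62.3 (median 56.4) to 50.1, 183 and 303. The immediate early genes Fos (-2.37 ± 0.37) and Egr2 (-2.24 ± 0.36) and the cytokine-signalling inhibitor Socs3 (-1.55 ± 0.27) belonged to the same group. Clec4d and Lilr4b, receptors of myeloid cells, differed by -1.95 ± 0.33 and -1.46 ± 0.27, Aard by -1.55 ± 0.26 and Inhbb, an activin subunit, by -1.18 ± 0.24. The myeloid list as a whole had a median of -0.73 in the KO and -0.17 in the control, and 41 of its 47 members had a difference below 0, beside which the share of myeloid RNA in these values was not tested.

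**Figure D4:**
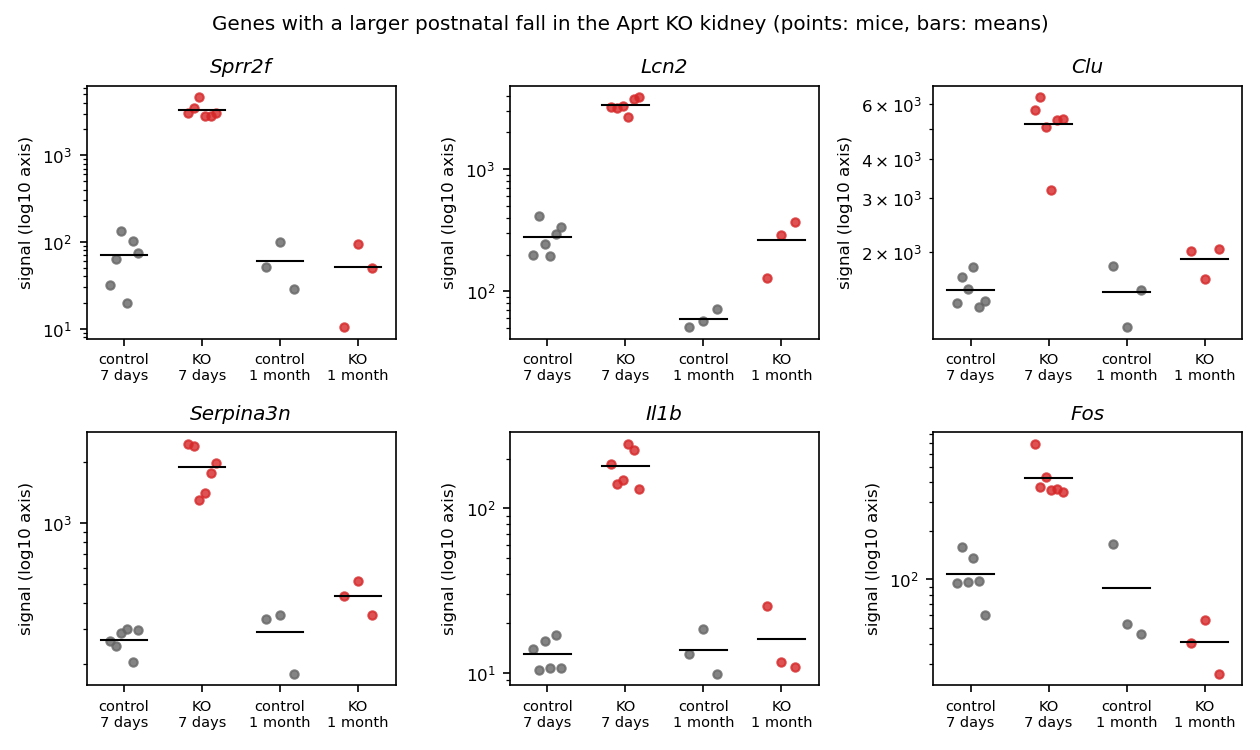
Signal on each of the 18 arrays, on a log10 axis, of 6 genes whose postnatal fall was larger in the Aprt KO kidney: Sprr2f, Lcn2, Clu, Serpina3n, Il1b and Fos. Groups are control and KO at 7 days (6 arrays each) and at 1 month (3 arrays each), points are mice and bars are group means. The 7-day KO group is the highest in each panel.

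The 8 genes with the higher change in the KO included genes of stroma, podocytes and tubule. Cdkn1c fell in both genotypes and by less in the KO: it gave 3274 to 4802 (median 3786) at 7 days and 1049.7, 914 and 940.5 at 1 month in the KO, against 5891 to 8585 (median 6172) and 878, 542 and 627 in the control, a difference of 1.30 ± 0.20 (adjusted p = 0.0046). Tcf21 (1.07 ± 0.20) gave 2926 to 3579 (median 3301) and 784, 783 and 956 in the KO against 3355 to 3711 (median 3583) and 417, 296 and 579.5 in the control. At 1 month every KO array was above every control array for both, and at 7 days every KO array was below every control array for Cdkn1c. The small proteoglycans Lum, lumican (1.11 ± 0.20), and Dcn (1.04 ± 0.19) differed the same way, with Dcn at 3757 to 5442 (median 4632) and 1791, 1913 and 1694 in the control.

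Aldh1a3, which makes retinoic acid, differed by 1.70 ± 0.35 and Retsat, retinol saturase, by 0.85 ± 0.16. Aldh1a3 gave 419 to 548 (median 461) and 202, 243 and 592 in the KO and 450.3 to 1033 (median 904) and 133, 149 and 184 in the control. Slc4a1 (0.97 ± 0.20) rose in the KO from a range of 185 to 276 (median 232) at 7 days to 545, 358 and 348 at 1 month and had a fold change of -0.15 in the control. It is a gene of red cells as well as of the collecting duct, and the red cell gene Alas2 gave 405 to 1773 (median 698) and 2219, 1120.2 and 566 on the KO arrays. Id3, an inhibitor of differentiation factors, differed by 0.87 ± 0.18. Without the litter with compressed bright signals Aldh1a3, Id3, Lum, Slc4a1 and Tcf21 of these 8, and Inhbb, Sprr2g and Sprr2i of the 20, did not pass the test. With quantile normalization Aldh1a3, Cdkn1c, Id3, Tcf21 and Inhbb did not. Of up to 30 alternatives, the difference lost its call in 24 for Id3, 23 for Aldh1a3, 22 for Inhbb and 20 for Slc4a1. It was lost in 18 for Osmr and for Sprr2g, 13 for Tcf21 and 12 for Retsat. For Lum, Lilr4b and Sprr2i it was lost in 10 each, and for Cxcl5 and Il1b in 1 each.

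**Figure D5:**
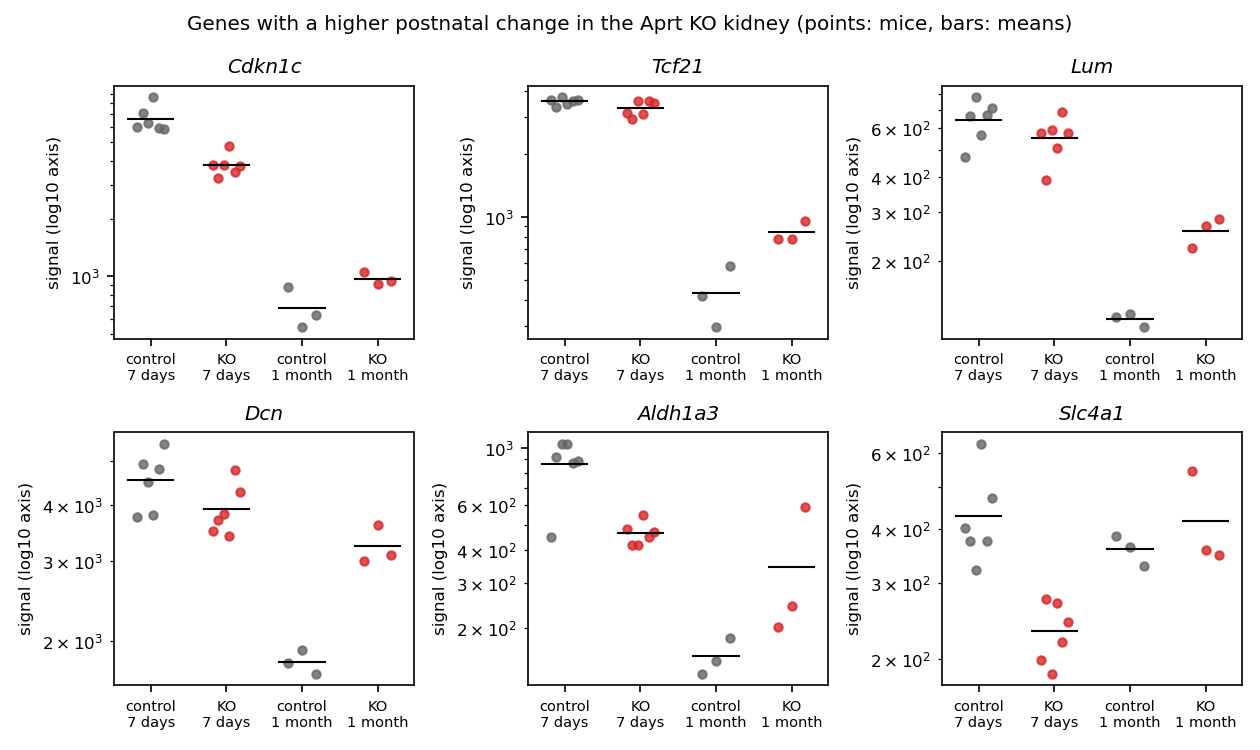
Signal on each of the 18 arrays, on a log10 axis, of Cdkn1c, Tcf21, Lum, Dcn, Aldh1a3 and Slc4a1, whose postnatal change was higher in the Aprt KO kidney than in the control. Groups and symbols are as in the plot of injury genes. At 1 month every KO array lies above every control array for Cdkn1c, Tcf21, Lum, Dcn and Aldh1a3, and the genotypes overlap for Slc4a1.

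The list medians of KO and control are given side by side, with no test of a difference between lists. The median for proximal tubule transporters was 1.17 in the KO and 1.02 in the control, for cell cycle genes -1.03 and -1.11, for interstitial matrix -1.49 and -1.70, and for oxidative phosphorylation 0.49 and 0.40. No member of the transporter, cell cycle or oxidative lists was called in the difference, and Lum and Dcn were the 2 called members of the matrix list. The thick limb and distal list had a median of 1.29 in the KO and 0.72 in the control, with no member called. For Egf the difference was 1.14 ± 0.37 (adjusted p = 0.49) and for Klk1 1.55 ± 0.39 (adjusted p = 0.185), and both were called with the litter as a replicate block. Medians lay further apart for tubular injury (-1.36 and -0.64), metalloproteinases (-0.67 and -0.16), androgen and sex responsive genes (1.07 and 1.71), fat (0.91 and -0.23) and adrenal genes (0.21 and -0.88). The median of the differences of single members was smaller, at -0.19, -0.02, -0.20, 0.25 and 0.62 for these lists. Among the metalloproteinases 8 members had a difference above 0 and 9 below. No list is shown to differ, or to be alike, between the genotypes by these medians.

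Markers of neighbouring tissues varied between the KO arrays. The adrenal genes Cyp11a1 and Star were bright on 7-day KO replicate 1 and on 1-month KO replicates 2 and 3, with Cyp11a1 at 465.5, 688 and 287 there and at 16.0 to 24.8 on the others. The muscle actin Acta1 gave 1842 on 7-day KO replicate 4 and 472 and 3978 on 1-month KO replicates 1 and 3, against 7.14 to 133 elsewhere. The mean log2 level of 14 fat genes was 7.69 to 9.02 (median 8.24) at 7 days and 8.68, 9.4 and 9.33 at 1 month, a difference of 0.878 with an exact permutation p = 0.0357 (two-sided, 84 arrangements, smallest possible 0.0238) and an adjusted p = 0.214 over the 6 measures so tested. Adipoq, adiponectin, gave 201 to 1354 (median 577) and 771, 1550.4 and 1709.5. Of the fat list 5 members rose, among them Scd1 (3.51 ± 0.45), Retn (2.0 ± 0.56), Lpl (1.72 ± 0.22) and Pck1 (1.10 ± 0.16), of which kidney tubules also express Pck1. In the control the fat list had a median of -0.23 against 0.91 in the KO. There Scd1 changed by 3.65, Lpl by 1.80, Pck1 by 1.1 and Retn by 0.90, while Adipoq changed by -0.18 against 1.16 in the KO, which passed in neither. The other 5 measures had exact p-values of 0.143 to 0.607, among them the 3′ to 5′ ratios of Gapdh (0.741 to 1.15 at 7 days; 0.921, 0.887 and 0.832 at 1 month) and beta-actin (0.967 to 1.66; 1.42, 1.19 and 1.77). Of 14 adrenal genes Fdx1 (0.97 ± 0.18) rose, of 20 muscle, liver and pancreas genes Cela1 (1.59 ± 0.21) rose, and of 20 blood and erythroid genes Slc4a1, Car2, Uros and Fech rose and Epb42 fell. With 1-month KO replicate 1 left out, 3 fat genes and 2 blood genes rose. The part of adjoining fat, adrenal or muscle in any single gene named here was not tested. Of 11 urothelial genes Upk2, a plaque protein, rose from a range of 76.4 to 163 (median 104) at 7 days to 406, 294 and 359 at 1 month (1.5 ± 0.27) and Krt5 by 0.75 ± 0.25, while Sprr2f fell.

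Part of the calls above was lost when a single KO array was left out. Without 1-month KO replicate 1, the fit takes the 1-month sex difference from the single control female. Calls lost there can reflect that design as well as the array. Of the 211 genes named here and called, 34 did not pass when 1 KO array was left out. Without 1-month KO replicate 1 the falls of Nr4a1, Cebpd, Hmox1, Foxj1, Ddit4, Ltb, Ctss, Epo, Mme, Dpp4 and Bhlhe40 were not called, with log2 fold changes of -0.85, -0.86, -0.70, -0.61, -0.66, -0.80, -0.94, -0.48, -0.74, -0.79 and -0.16. Nor were those of Cd1d1 (-0.35), Pdk1 (-0.28), Rps15 (-0.45), Eif2ak2 (-0.42) and Ifitm3 (-0.58), or the rises of Bmp4 (0.43), Hsd11b2 (0.94), Slc2a1 (0.72), Timp3 (0.62), Retn (1.92), Crym (0.99), Igfals (0.72), Krt5 (0.80), Ctsz (0.56), Fech (0.67), Ifit1 (1.09) and Uros (0.56). With the litter as a random replicate block, Bhlhe40, Cd1d1, Ctss, Eif2ak2, Epo, Krt5 and Rps15 were not called either. Slc6a6, Arntl and Epb42 were not called without 1-month KO replicate 2 (0.58, -0.34 and -0.64), nor Cyp1b1, Ifi27 and Irf1 without replicate 3 (-0.42, 0.51 and -0.58). Among the 7-day KO arrays, leaving out 1 cost the call of Cd1d1, Rps15, Epo, Krt5, Bhlhe40, Arntl, Dpp4, Eif2ak2, Ifit1 or Uros, with fold changes of the same sign throughout.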

How the data were processed

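Total RNA of 18 mouse kidneys was hybridised, 1 mouse per array, to single-colour Affymetrix MG_U74Av2 arrays. The deposited values are linear signal intensities, summarised per probe set by the authors with MAS5 in GCOS per the submitters' processing notes, with versions not given in the sources used here. The trimmed mean of every array was near 500, so the authors had scaled the arrays already, and no further normalization was applied. Arrays have no read depth, and their number limits the precision. Of 12488 probe sets, 10833 have 1 gene symbol in the platform annotation, which can be old, 396 have several, 1193 have none and 66 are controls. Probe sets with several symbols or none were left out, so Havcr1 and Spp1 are not analysed here.

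Signals were transformed as log2(signal + 29), where 29 is the 20th percentile of all values, rounded. limma 3.58.1 in R 4.3.3 fitted 4 group means and sex within each age on all 18 arrays, with eBayes and an intensity trend (12 residual degrees of freedom) and two-sided tests adjusted by Benjamini-Hochberg at 0.05. The fit was tested on simulated data that held no litter or sex effect, so that test does not bear on either. KO and control mice share litters per the labels, with a consensus correlation of 0.445 within litters, but no litter spans the ages. Age cannot be compared within litters, and blocked counts are printed beside the difference between genotypes. Within the age contrast, a random litter block changed calls of single genes, which are named in the text. Permutation tests were exact. Promoters are the first RefSeq window listed for a gene on GRCm38.p6.

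Named genes are the 10 largest rises and falls above the 40th percentile of signal (118.557) without overlap, the 8 largest differences between genotypes to each side, up to 4 members per list and direction by smallest p, up to 3 members per list called in the difference, and 7 genes whatever their values (Kap, Egf, Umod, Col1a1, Clu, Lcn2, Aprt). Aard, Clec4d, Cxcl2, Inhbb, Lilr4b, Sprr2g and Sprr2i, which complete the 28 genes, and Six2 and Cited1 lie outside it and were picked with their values in view. The members and all 43 lists were chosen with earlier results of these data known. Alternatives were the pseudocount, normalization, level filter, probe set rule, sex term, males alone, 9 arrays of 1 genotype alone, spread estimate, litter block, arrays whose Aprt signal went against the label, and each array left out. Leaving out the litter with compressed bright signals was added after seeing the data.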

Additional observations from a re-analysis of the deposited data

Results flagged for a closer look

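In 28 of 222 genes checked among the 6 7-day KO arrays, 1 array stood apart from the nearest other by more than Dixon's limit, which chance exceeds in about 1 group in 20. Replicate 4, the KO array of the litter with compressed bright signals, was the array apart in 11 of them. It gave the highest signal for Acta1 (1842), Aprt (135), Cdkn1c (4802), Cldn6 (1118), Krt8 (6146), Myc (228), Slc2a1 (428) and Srm (640.2), and the lowest for Kap (5675), Mt1 (6946) and Slc34a1 (4241). Replicate 3 was highest for Cry1 (868), Hao2 (1687), Mep1b (592), Postn (3058) and Sprr2f (4610.4) and lowest for Clec4d (27.2), Hsd11b2 (604) and Mfap2 (1761). Replicate 1 was highest for the adrenal genes Cyp11a1 (465.5), Star (327) and Fdx1 (3812) and for the immediate early genes Fos (690.5) and Nr4a1 (604). Replicate 2 was highest for Fbl (1891) and Timp1 (1954), and replicate 5 for Foxj1 (404) and Retn (339). The cause of each was not tested.

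For 28 genes the postnatal change differed between KO and control by the limma test of the difference. The change was lower in the KO, as a difference of log2 fold changes, for Sprr2f (-5.37), Cxcl5 (-2.60), Il1rn (-2.47), Bcl3 (-2.41), Fos (-2.37), Egr2 (-2.24), Il1b (-2.22), Serpina3n (-2.08), Clec4d (-1.95), Lcn2 (-1.85), Osmr (-1.71), Cxcl2 (-1.67), Aard (-1.55), Socs3 (-1.55), Lilr4b (-1.46), Clu (-1.37), Cd14 (-1.33), Sprr2i (-1.23), Inhbb (-1.18) and Sprr2g (-1.06). It was higher in the KO for Aldh1a3 (1.70), Cdkn1c (1.30), Lum (1.11), Tcf21 (1.07), Dcn (1.04), Slc4a1 (0.97), Id3 (0.87) and Retsat (0.85).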

How the results depend on the processing

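The counts of KO genes that rose and fell, 844 and 1545, were 546 and 888 among males only, 420 and 696 without the 4 arrays whose Aprt signal went against the label, and 474 to 835 and 814 to 1493 when 1 array was left out, with the lowest counts without 1-month KO replicate 1. The other settings kept both within 1.5 times. The control counts, 814 and 1554, were 526 and 941 among males only and 437 to 809 and 870 to 1519 with 1 array left out. The difference between genotypes called 8 genes higher and 20 lower in the KO. Higher calls numbered 39 and 33 with the litter pair as a fixed or random replicate block, 0 among males only, 4 without an intensity trend, without a sex term, with the pseudocount at the 40th percentile or without the compressed litter, 5 after quantile normalization, 1 without the 4 arrays and 1 to 8 with 1 array left out. Lower calls numbered 33 and 41 with the fixed or random replicate block, 1 among males only, 6 without the 4 arrays and 11 to 23 with 1 array left out. Of 211 genes named and called in the KO, 158 were called under all 21 alternatives and none changed direction. Of genes not called, Aprt turned to -0.33 among males only, -0.08 as a mean over probe sets and ranged from -0.11 to 0.22 with 1 array left out. Alas2 turned to -0.42 among males only and Six2 to 0.14 after quantile normalization. With 1 array left out Cited1 ranged from -0.93 to 0.04 and Six2 from -0.30 to 0.01. List medians changed sign for 6 of 43 lists: circadian clock (0.06), lymphocytes (0.10), antigen presentation (0.07) and interferon response (0.10) after quantile normalization, blood (-0.01) among males only and adrenal (-0.17) without 1-month KO replicate 2. The reduced sets hold fewer arrays. Without replicate 1 of a 1-month group, the sex term at that age rests on 1 female. Apart from these points, the cause of the shifts was not tested. Signals near the added 29 limit the fold changes of dim genes.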
